A study of Mus musculus with 42 samples.

Results

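Mitochondrial fatty acid oxidation was described through 8 genes, namely Cpt1a, Cpt1b, Cpt2, Acadm, Acadl, Acadvl, Hadha and Hadhb, which were taken as every non-control probe of the array that carries 1 of these names. They held 12 of the 41174 non-control probes and were 8 of the 27597 genes on the array. None of the 8 is an enzyme of ketone body synthesis, so genes of ketone body metabolism are given separately as a list of their own. RNA of liver, quadriceps muscle and visceral fat was measured on 42 arrays with 1 dye (Cy3), all from female mice of strain C57BL/6. The mice were wild-type or Akt1+/-, that is heterozygous for loss of Akt1, a kinase of the insulin/IGF1 pathway, in the whole body. According to the methods of the study, heterozygous mice were backcrossed to C57BL/6 mice and compared with wild-type littermates. In each tissue, both genotypes had 3 arrays at 8 weeks of age and 4 at 35 weeks. The older age is that of the labels, and the study's methods give a higher one. The labels neither tie arrays of different tissues to 1 mouse nor say that replicates are separate mice, so all p-values measure only the spread between these samples, which may be technical.

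Long-chain fatty acids enter mitochondria through the carnitine shuttle. Carnitine palmitoyltransferase 1 on the outer membrane, of which Cpt1a encodes the liver form and Cpt1b the muscle form, makes the acylcarnitine, and Cpt2 on the inner membrane turns it back into acyl-CoA. The first step of each round of oxidation is carried out by acyl-CoA dehydrogenases that differ in the chain length they prefer, very long (Acadvl), long (Acadl) and medium (Acadm). The later steps on long chains are carried out by the trifunctional protein, whose alpha and beta subunits are encoded by Hadha and Hadhb. The liver turns much of the acetyl-CoA made in this way into ketone bodies, whereas muscle burns it.

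The sequences upstream of the genes are shown because many genes of this pathway are known targets of nuclear receptors such as PPAR alpha, which bind copies of AGGTCA. RefSeq windows of 250 bases before the transcription start (GRCm38.p6) were at hand for 7 of the 8 genes, all but Cpt1b, and were searched on both strands. AGGTCA occurred in the windows of Cpt1a, Acadm and Acadvl, and not in those of Cpt2, Acadl, Hadha and Hadhb. Of all 32851 windows of this length, 14% held it. In Cpt1a (chr19:3323051-3323300, plus strand) it lay on the opposite strand, 94 to 89 bases before the start, in Acadm (chr3:153944644-153944893, minus strand) on the opposite strand, 249 to 244 bases before it, and in Acadvl (chr11:70015429-70015678, minus strand) on the same strand, 87 to 82 bases before it. Capitals mark the match, which reads TGACCT where it lies on the opposite strand.
Cpt1a: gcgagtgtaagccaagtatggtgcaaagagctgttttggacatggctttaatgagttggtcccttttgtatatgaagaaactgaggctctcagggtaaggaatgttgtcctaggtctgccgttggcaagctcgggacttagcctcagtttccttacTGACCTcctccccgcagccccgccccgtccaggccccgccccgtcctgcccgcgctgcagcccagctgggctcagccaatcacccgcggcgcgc
Acadm: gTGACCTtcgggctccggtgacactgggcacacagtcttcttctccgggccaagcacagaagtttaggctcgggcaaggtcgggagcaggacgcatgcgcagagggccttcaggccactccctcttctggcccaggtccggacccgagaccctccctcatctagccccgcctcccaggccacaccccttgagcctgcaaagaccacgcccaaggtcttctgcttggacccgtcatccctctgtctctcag
Acadvl: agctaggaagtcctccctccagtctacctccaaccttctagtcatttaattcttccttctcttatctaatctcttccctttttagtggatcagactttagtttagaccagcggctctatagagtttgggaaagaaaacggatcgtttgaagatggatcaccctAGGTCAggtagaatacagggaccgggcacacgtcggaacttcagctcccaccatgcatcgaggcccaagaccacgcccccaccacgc
AGGTCA followed by 1 base and AGGTCA again, the form bound by PPAR with RXR, was in 0.0335% of all windows, and TCA directly before AGGTCA, the form bound by ERR factors, in 0.387%. Neither was in any of the 7 windows. A match is only a string of letters, and its absence says only that these letters are not in this window.

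Hadha and Hadhb lay head to head on chromosome 5 of GRCm38.p6, Hadha on the minus strand and Hadhb on the plus strand, with 272 bases between them. Their upstream windows therefore shared 228 bases. The window of Hadhb (chr5:30155003-30155252, plus strand) is shown because it covers most of the interval from which both subunits of 1 protein complex are transcribed.
Hadhb: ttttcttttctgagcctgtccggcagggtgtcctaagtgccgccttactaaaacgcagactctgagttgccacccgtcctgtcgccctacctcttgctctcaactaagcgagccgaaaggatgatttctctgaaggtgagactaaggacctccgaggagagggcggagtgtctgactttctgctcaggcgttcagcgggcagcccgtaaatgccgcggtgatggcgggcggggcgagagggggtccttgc
The GC content of the windows was 68% in Acadl, 64% in Acadm, 59.6% in Cpt1a, 58.8% in Hadha and Hadhb, 56.8% in Cpt2 and 49.6% in Acadvl, against a median of 52.4% over all windows and quartiles of 45.2 and 61.2%.

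In what follows, a log2 level is the log2 intensity of a probe minus the 75th percentile of its array, so that 1 unit is a 2-fold difference. A gene was called when its Benjamini-Hochberg adjusted p in limma, over all genes tested in the same fit, was below 0.05. Every gene had at least 1 probe well above background on all 42 arrays, and the brightest of these stood for it. Levels of different probes cannot be set against each other, so each gene is compared only with itself. The 75th percentile of the arrays lay between intensities of 274.2 and 795.1, and on each array 56.53 to 68.63% of probes passed the scanner software's test for signal well above background. Akt1 was 0.67 lower in the livers of Akt1+/- mice (adjusted p = 0.00251), 0.58 lower in muscle (0.0747) and 0.55 lower in fat (0.00649), as log2 differences. Defining markers followed the labelled tissues, with 5 of 5 hepatocyte genes lower in muscle and in fat than in liver, 6 of 6 muscle fibre genes highest in muscle and 6 of 6 adipocyte genes highest in fat. Markers of other cell types varied between arrays, and those called in the same comparison as a member are given beside it by name or as counts. A summed level is the log2 of the sum of the unlogged levels of a list, so its brightest markers dominate it. In bulk tissue, fewer cells of a type and less RNA per cell cannot be told apart. No slide and no scan day held both ages of 1 tissue, so that age and scan day cannot be told apart, and at 35 weeks each genotype had a slide of its own in each tissue. In fat the genotypes also had different scan days, except for 1 wild-type array of 8 weeks scanned with the Akt1+/- arrays of that age. Genotype and scan day therefore cannot be told apart in fat at 35 weeks, and are largely tied at 8 weeks.

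Tissue differences of the 8 genes reached 7.85 log2 units, whereas the called differences between ages or genotypes within a tissue were at most 0.53. Cpt1a was highest in liver and lowest in muscle, and Cpt1b was highest in muscle and lowest in fat. The other 6 genes were lowest in fat. Of the 8 genes, 8 were lower in fat than in liver (44.2% of all genes were called lower), 7 differed between muscle and liver and 8 between muscle and fat. Among all 19862 genes of this fit, 86.2%, 85.8% and 87.6% were called in these comparisons, so a call is common here and the sizes carry the description.

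The largest tissue differences were those of Cpt1a and Cpt1b. The level of Cpt1a in liver ranged from 5.57 to 6.19 with a median of 5.95 (14 arrays), in fat from 1.86 to 2.37 with a median of 2.17, and in muscle from −0.13 to 0.98 with a median of 0.14. The 3 ranges did not overlap, and the order was liver, fat, muscle. Against liver, Cpt1a was 5.69 lower in muscle (SE 0.072, 51.6-fold, adjusted p = 2.83e-36) and 3.79 lower in fat (13.8-fold). Its main probe (mm8, chr19:3385374-3385433) was printed 10 times on each array, with a median SD of 0.0522 between spots, which is small beside all of these differences. Its other probe gave log2 differences of −5.31 and −3.83.

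Cpt1b followed another order, muscle, liver, fat. Its level in muscle kept to between 5.42 and 5.69 (median 5.51) over all ages and genotypes, whereas it ranged from 0.04 to 1.50 in liver (median 0.70) and from −2.91 to −1.60 in fat (median −2.40). The muscle SD of 0.074 was the lowest, and the fat SD of 0.414 the highest, of this gene's 3 tissue SDs. Cpt1b was 4.83 higher in muscle than in liver (SE 0.112, 28.5-fold, adjusted p = 7.97e-29) and 7.85 higher than in fat (231-fold). Its other probe gave 4.19 and 7.42. The main probe lies at chr15:89244225-89244284 (mm8). Cpt2, the shared inner membrane enzyme, stood at 6.98 ± 0.09 in liver, 5.68 ± 0.18 in muscle and 4.89 ± 0.25 in fat (mean ± SD, n = 14), and so was 1.30 lower in muscle and 2.08 lower in fat than in liver.

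**Figure D1:**
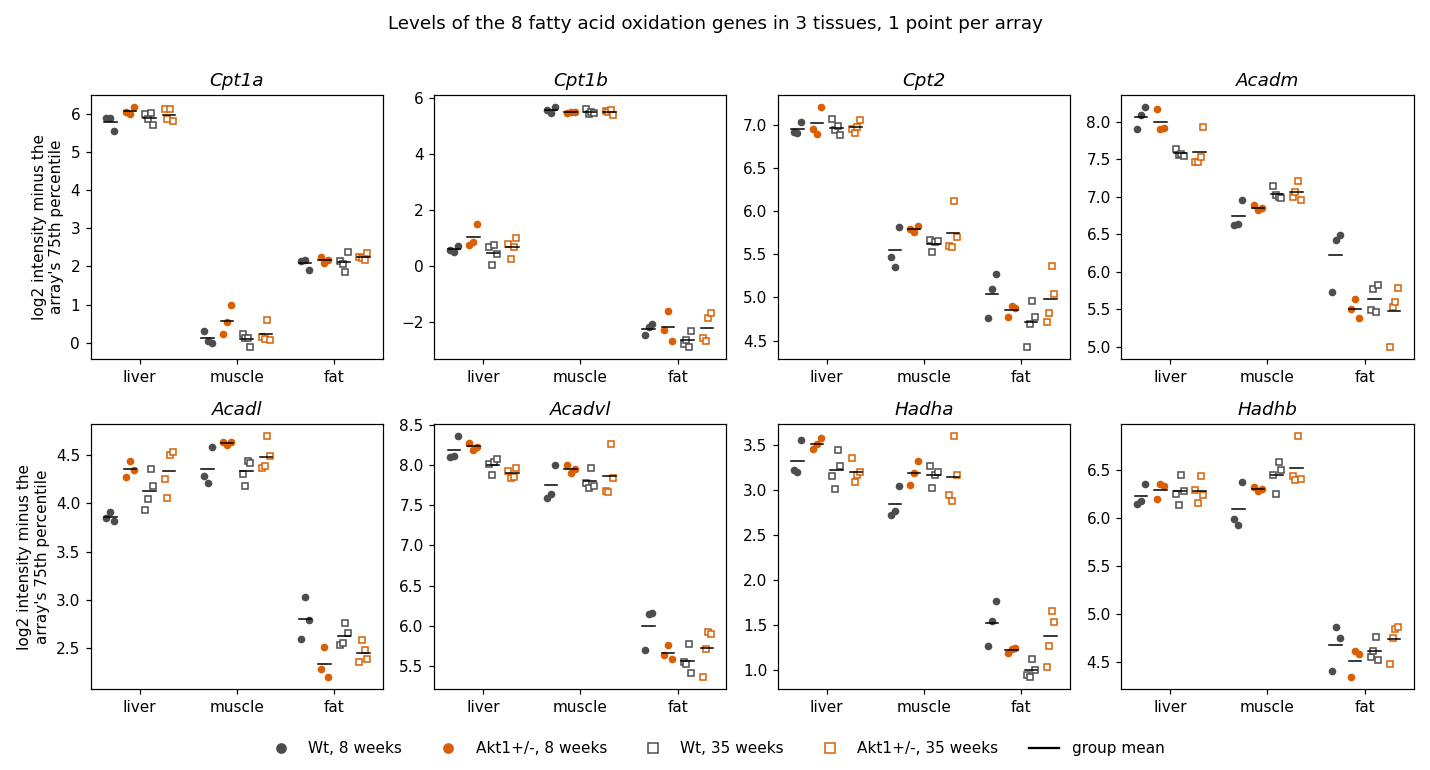
Log2 level (log2 intensity minus the 75th percentile of the array) of the main probe of each gene on every array, by tissue, with genotype by colour, age by symbol and a line at each group mean (3 arrays per group at 8 weeks, 4 at 35 weeks). Scales differ between panels. Cpt1a is highest in liver and lowest in muscle, Cpt1b is highest in muscle and lowest in fat, and the other genes are lowest in fat.

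Among the acyl-CoA dehydrogenases the gap between fat and the other tissues was 3.05- to 5.08-fold against liver. Acadvl averaged 8.06 ± 0.16 over livers, 7.84 ± 0.19 over muscles and 5.72 ± 0.24 over fat samples (mean ± SD, n = 14). In the same order Acadm averaged 7.78 ± 0.27, 6.94 ± 0.17 and 5.69 ± 0.39, and Acadl 4.18 ± 0.24, 4.44 ± 0.17 and 2.55 ± 0.22. Acadm and Acadvl were lower in muscle than in liver, by 0.89 (SE 0.077) and 0.24 (SE 0.066, adjusted p = 0.00129). Acadl went the other way and was 0.28 higher in muscle (SE 0.059, adjusted p = 5.34e-05), although the liver range of 3.81 to 4.53 and the muscle range of 4.18 to 4.69 overlapped.

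The subunits of the trifunctional protein were nearly level between liver and muscle. Hadha was 0.23 lower in muscle than in liver (SE 0.072, adjusted p = 0.00372). For Hadhb the difference was 0.07 (95% confidence interval −0.06 to 0.20, adjusted p = 0.29), so liver and muscle, its neighbours in the order of tissues, did not differ beyond their spread. In fat both were lower than in liver, Hadha by 2.04 and Hadhb by 1.64. Of the other Hadha probes, both designed on cDNA clones, 1 was well above background on 0 liver arrays, 1 muscle array and 1 fat array, and the other was 0.29 lower in muscle (adjusted p = 0.0658) and 0.67 lower in fat than in liver. A single slide held muscle and liver arrays, those of 8-week-old Akt1+/- mice. Within it, 2 muscle arrays differed from 1 liver array by −5.26 for Cpt1a, 4.66 for Cpt1b, −1.10 for Cpt2, −1.07 for Acadm, 0.18 for Acadl, −0.26 for Acadvl, −0.26 for Hadha and −0.07 for Hadhb.

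Other genes of fat oxidation, in lists of known members, shared part of this order. Of 12 other genes of mitochondrial oxidation, 12 were lower in muscle than in liver and 12 lower in fat than in liver, with median log2 differences of −0.73 and −1.81, against 0.06 and −0.04 over all genes. The largest was the thiolase Acaa2, 1.98 lower in muscle and 3.65 lower in fat. Of 10 peroxisomal genes, 9 were lower and 1, the carnitine acetyltransferase Crat, was 1.56 higher in muscle than in liver, and 10 were lower in fat. The largest of these were the thiolase Acaa1b, 6.17 lower in muscle, and the bifunctional enzyme Ehhadh, 5.73 lower in fat, where Crot, which hands medium chains from peroxisomes to carnitine, was 5.24 lower.

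Genes of ketone body metabolism differed in direction. Oxct1, which activates ketone bodies for use outside the liver, was 6.24 higher in muscle and 4.82 higher in fat than in liver. Bdh1, which interconverts the ketone bodies, was 3.38 and 9.27 lower, and Acat1 0.41 and 2.02 lower. Of 10 regulators of the pathway, 7 were higher and 3 lower in muscle than in liver, among them Ppara, the receptor PPAR alpha, which was 3.03 lower in muscle and 5.19 lower in fat. Prkaa2, a catalytic subunit of AMP-activated kinase, was 2.57 higher in muscle and 2.90 lower in fat, and Acacb, whose product malonyl-CoA inhibits carnitine palmitoyltransferase 1, was 2.74 and 1.20 higher. Of 9 further PPAR targets, 3 were higher and 6 lower in muscle than in liver, and 5 higher and 4 lower in fat. The largest differences were −11.58 for Cyp4a14 in muscle and −13.37 for Fabp1 in fat, where Fabp1 was well above background on 6 of 14 arrays, so that the latter rests on dim signals. Pdk4, a kinase that restrains glucose oxidation, was 5.86 higher in muscle and 2.92 higher in fat.

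Few of the 8 genes were called for genotype, and a gene not called may still differ. In liver 1 of 8 was called, against 6.26% of the 17561 genes tested, and it was Acadl, which was higher in Akt1+/- mice. Its levels (probe at chr1:66764307-66764366, mm8) at 8 weeks were 3.84, 3.91 and 3.81 in wild-type livers and 4.27, 4.44 and 4.34 in Akt1+/- livers, with no overlap. At 35 weeks they were 3.93, 4.04, 4.35 and 4.17 in wild-type livers and 4.25, 4.06, 4.495 and 4.53 in Akt1+/- livers, and the groups overlapped. Over both ages Acadl was 0.35 higher in Akt1+/- livers (SE 0.092, 1.28-fold, adjusted p = 0.0428). The difference was 0.50 at 8 weeks (adjusted p = 0.0773) and 0.21 at 35 weeks (0.416), and its change between the ages did not pass the test (interaction −0.29, adjusted p = 0.521).

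The call of Acadl in liver was close to the threshold. With the arrays scaled to their median instead of the 75th percentile, which lowered the median difference of all genes in this comparison by 0.13, Acadl was 0.22 higher (adjusted p = 0.137). It was lost when any 1 of 11 of the 14 arrays was left out (0.32 to 0.37, adjusted p = 0.0547 to 0.0884), and kept only without the first Akt1+/- array of 8 weeks, the second Akt1+/- array of 35 weeks or the third wild-type array of 35 weeks. No slide held livers of both genotypes, and the effects of slide and of genotype cannot be told apart within an age.

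Markers of other cells moved with Acadl in liver. Of 6 adipocyte markers, 2 passed the filter in liver. Cidec, which coats lipid droplets, was 2.01 higher in Akt1+/- livers (adjusted p = 0.0309), and Fabp4 differed by 0.07. Cidec at 8 weeks stood at 2.04, 2.60 and 1.90 in wild-type livers and, in those of Akt1+/- mice, at 3.94, 4.50 and 6.60, and at 35 weeks at 4.75, 2.96, 5.15 and 4.18 against 5.60, 4.10, 5.89 and 6.17. The summed level of the 6 markers ranged from 3.45 to 3.75 in wild-type and from 4.48 to 6.72 in Akt1+/- livers at 8 weeks, and from 3.57 to 5.35 and from 4.44 to 6.27 at 35 weeks. Adipoq, Plin1, Lep and Retn averaged −5.93, −5.63, −7.21 and −6.57 in liver, so these sums rest on Cidec and Fabp4. Adipoq, which defines adipocytes, was well above background on 1 of 14 liver arrays. Of 4 lymphocyte markers 1, the T cell gene Cd3e, was 0.47 higher in Akt1+/- livers (adjusted p = 0.0274), with summed levels of −1.51 to −0.89 in wild-type and −1.15 to −1.11 in Akt1+/- livers at 8 weeks and of −1.12 to −0.76 and −0.78 to −0.26 at 35 weeks. None of 5 hepatocyte and 4 macrophage markers was called for genotype, but at 8 weeks their sums did not overlap, at 10.71 to 10.76 in wild-type and 10.45 to 10.63 in Akt1+/- livers for hepatocytes and at 3.28 to 3.75 and 3.95 to 4.29 for macrophages. The part of these markers in the result was not tested.

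The other 7 genes were not called for genotype in liver. Their differences ran from −0.03 for Acadvl (adjusted p = 0.784) to 0.33 for Cpt1b (0.212), with Cpt1a at 0.19 (0.183). The other Cpt1b probe averaged −0.29 in wild-type and 0.14 in Akt1+/- livers at 8 weeks, and −0.10 and −0.24 at 35 weeks, where the direction was opposite. Cpt1b was spread in these livers, at 0.56, 0.50 and 0.72 in the wild-type group of 8 weeks and at 0.74, 0.85 and 1.50 in the Akt1+/- group. The highest of these arrays, the third Akt1+/- one, also had the highest Cidec of all 14 livers and was 1 of 2 Akt1+/- arrays of that age with myoglobin (Mb, a muscle fibre marker) well above background, at −1.08 beside 0.73, and with summed muscle fibre levels of −3.67 to 0.98 over the Akt1+/- group and −3.54 to −2.93 over the wild-type group. Ckm, another defining muscle gene, was not well above background on any Akt1+/- liver array. Markers of slow muscle fibres differed at 8 weeks by 3.50 (Myh7, adjusted p = 0.0953), 0.52 (Tnnt1), 0.075 (Tnnc1) and −0.13 (Tnni1), none called. The summed level of 5 such markers was −1.40 to −0.16 in wild-type and −0.44 to 1.89 in Akt1+/- livers of that age. Whether muscle RNA took part in the Cpt1b level was not tested.

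Decr1, which reduces the double bonds of unsaturated fatty acids so that they can be oxidised, was the only 1 of the 12 other mitochondrial genes called for genotype in liver, at 0.43 higher in Akt1+/- mice (SE 0.098, adjusted p = 0.0284). None of the ketone body, peroxisomal and regulator genes, and none of the 8 PPAR targets tested, was called there.

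In muscle 0 of the 8 genes were called for genotype by limma, and 0% of all 17139 genes were. At an unadjusted p below 0.05 there were 2 members (Acadl and Cpt1a) and 3170 genes in all, and the 2-way test of the study's methods called 0 members and 1 gene after adjustment. Differences were positive for 7 of 8 genes, with a median of 0.15, against −0.003 over all genes. They ran from −0.03 for Cpt1b, through 0.21 for Acadl (95% interval 0.04 to 0.38), to 0.30 for Cpt1a (0.03 to 0.57). The other Cpt1a probe averaged −2.30 in wild-type and −1.96 in Akt1+/- muscle at 8 weeks, and −2.36 and −2.42 at 35 weeks, where the direction was opposite. On the main Cpt1a probe the 8-week Akt1+/- arrays stood at 0.23, 0.53 and 0.98 and the wild-type arrays at 0.32, 0.05 and 0.00. The array at 0.98 also had the highest albumin (Alb, a hepatocyte marker) of all 14 muscle arrays, at 5.18 against −5.49 to 1.76 on the others, and the summed level of 5 hepatocyte markers was −1.09 to 5.30 in Akt1+/- and −0.89 to 1.74 in wild-type muscle of that age. Only the first Akt1+/- array shared a slide with the wild-type arrays, and it was 0.11 above them for Cpt1a, against 0.46 over all 3 arrays. Markers of slow muscle fibres were 1.49 to 1.67 higher in Akt1+/- muscle at 8 weeks, none called (adjusted p = 0.232 to 0.261). At 35 weeks they differed by −0.175 to 0.01. The median genotype difference of the 8 genes was 0.23 at 8 weeks and 0.07 at 35 weeks. The part of liver RNA, slow fibres or slide was not tested.

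In fat 0 of the 8 genes were called for genotype by limma, against 0.822% of 18366 genes, although Acadl and Acadm were lower by 0.32 (adjusted p = 0.0903) and 0.44 (0.155). These 2 were also the only members at an unadjusted p below 0.05, where 3532 genes lay, and the methods' 2-way test put 1 member below its threshold and 0 after adjustment. For Acadl the 8-week arrays stood at 2.60, 3.03 and 2.79 for wild-type and 2.28, 2.52 and 2.20 for Akt1+/- fat, with no overlap, and the 35-week arrays at 2.54, 2.55, 2.77 and 2.66 against 2.36, 2.59, 2.48 and 2.39, where they overlapped. For Acadm (probe at chr3:153860092-153860151, mm8) the 8-week arrays stood at 5.74, 6.43 and 6.49 in wild-type and at 5.51, 5.64 and 5.39 in Akt1+/- fat, again with no overlap. At 8 weeks the differences were −0.47 for Acadl (adjusted p = 0.0652) and −0.71 for Acadm (0.0933), and 1.84% of all genes were called at that age.

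At 8 weeks 1 slide held the 3 Akt1+/- fat arrays and 1 wild-type array. Within it, the Akt1+/- arrays differed from that array by −0.46 for Acadl, −0.98 for Acadm, −0.50 for Acadvl and −0.54 for Hadha, and with slide as a block none of these was called (adjusted p = 0.231 to 0.351). Macrophage markers moved with these differences, with a summed level of 4.62 to 4.97 in wild-type and 5.16 to 5.36 in Akt1+/- fat at 8 weeks and 1 of 4 markers called higher. Of 3 hepatocyte markers tested 1, Alb, was 3.05 lower in Akt1+/- fat (adjusted p = 0.0387), and the sum over all 5 was 0.89 to 3.13 in wild-type and −0.33 to 0.15 in Akt1+/- fat, with no overlap. Muscle fibre markers, of which Acta1 was by far the brightest in fat, summed to 4.97 to 6.65 and 3.96 to 5.37. Their part was not tested. Of the other 12 mitochondrial genes, 3 were lower in Akt1+/- fat at 8 weeks, namely Hadh by 0.88 (adjusted p = 0.0496), Echs1 by 0.49 (0.0497) and Eci2 by 0.46 (0.0498), which act within each round of oxidation or, for Eci2, on unsaturated chains. Prkaa2 was 0.68 lower (0.0458).

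The genotype difference of Acadl was compared between the tissues directly. It was 0.68 lower in fat than in liver (SE 0.118, adjusted p = 0.000898), and 0.53 higher in muscle than in fat (SE 0.118, adjusted p = 0.0298). Acadl was the only member called in each, against 4.26% and 0.74% of all genes. Between muscle and liver 0 of 8 were called by limma and 0 had an unadjusted p below 0.05 (0.896% and 3236 of all genes). Both comparisons rest on the same fat arrays, in which genotype and scan day go together apart from 1 wild-type array. The difference between muscle and fat fell short of the threshold when 1 of 7 arrays was left out (0.47 to 0.53, adjusted p = 0.0508 to 0.0885), which were wild-type muscle at 8 weeks (replicates 1 and 2) and 35 weeks (replicate 2), wild-type fat at 8 weeks (replicate 2) and 35 weeks (replicate 4) and Akt1+/- fat at 8 weeks (replicate 3) and 35 weeks (replicate 1). It also fell short with slide as a random block (0.53, adjusted p = 0.0856) and with median scaling (0.44, 0.0695). That between fat and liver stayed called without any 1 array and in both of these settings. Decr1 gave −0.88 (adjusted p = 0.00272) between fat and liver and 0.78 (0.0298) between muscle and fat, and Hadh, which oxidises the hydroxyacyl-CoA of shorter chains, −0.47 (0.0454) and 0.59 (0.0415).

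**Figure D2:**
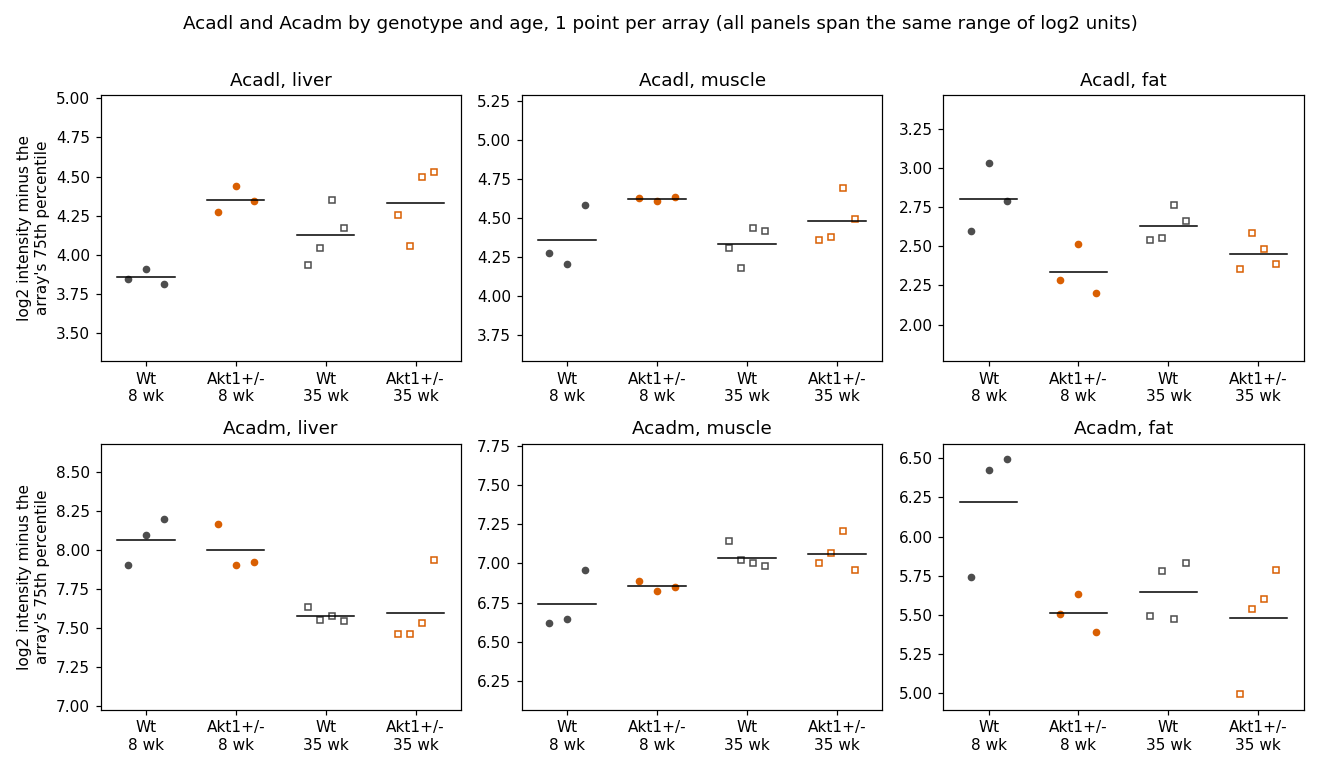
Log2 level of Acadl (top) and Acadm (bottom) on every array, by genotype and age in each tissue, with a line at the group mean (3 or 4 arrays per group). Panels start at different levels but span the same range of log2 units. The group means of Acadl lie higher in liver and lower in fat in Akt1+/- than in wild-type mice, and Acadm at 35 weeks lies lower in liver and higher in muscle than at 8 weeks.

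Acadm was lower with age in liver and higher in muscle, the latter call depending on the processing. In liver 2 of 8 genes were lower at 35 than at 8 weeks and 0 were higher, against 35.1% of all genes called and 15% called lower. Acadm at 8 weeks stood at 7.90, 8.09 and 8.20 in wild-type livers and at 8.17, 7.90 and 7.92 in Akt1+/- livers. At 35 weeks it stood at 7.64, 7.55, 7.58 and 7.55 in wild-type livers and at 7.46, 7.46, 7.53 and 7.94 in Akt1+/- livers. All but the last of the 8 older arrays were below all 6 younger ones. Over both genotypes Acadm fell by 0.44 (SE 0.089, 1.36-fold, adjusted p = 0.00253), by 0.49 in wild-type livers (0.017), where 22.6% of all genes were called, and by 0.40 in Akt1+/- livers (0.0474), where 16.8% were.

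Acadvl fell less, by 0.26 (SE 0.064, adjusted p = 0.0076). Its levels were 8.10, 8.12 and 8.36 for wild-type and 8.28, 8.19 and 8.23 for Akt1+/- mice of 8 weeks, and 8.02, 7.88, 8.04 and 8.08 for wild-type and 7.92, 7.84, 7.86 and 7.97 for Akt1+/- mice of 35 weeks, so that all 8 older arrays were below all 6 younger ones. Hadha was 0.21 lower (adjusted p = 0.0745). For this gene the clone-based probe disagreed, being 0.52 higher at 35 weeks (adjusted p = 0.0209 with every probe tested on its own). Cpt1a and Cpt2 differed by 0.01 and −0.02 and Hadhb by 0.02.

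With median scaling, which lowered the median age difference of all genes in liver by 0.20, 5 members were called lower, Acadm by 0.64, Acadvl by 0.46, Cpt1b by 0.44, Hadha by 0.41 and Cpt2 by 0.21. The split of all calls moved with it, from 57.2% higher to 24.5% higher. In liver 1 of 5 hepatocyte markers was lower and 2 of 4 macrophage markers were higher at 35 weeks. The summed hepatocyte level went from a range of 10.45 to 10.76 over all livers of 8 weeks to 10.41 to 10.86 at 35 weeks. The summed macrophage level was 3.28 to 3.75 in wild-type and 3.95 to 4.29 in Akt1+/- livers of 8 weeks, and 3.99 to 4.35 and 3.71 to 4.53 at 35 weeks. In addition 2 of 4 lymphocyte and 1 of 3 endothelial markers were higher, 1 of 2 erythroid and 1 of 2 adipocyte markers lower, and of 4 slow fibre markers 1 was higher and 1 lower. The part of these cells was not tested.

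In muscle 2 of 8 genes were higher at 35 weeks and 0 were lower, against 31.3% of all genes called and 16.9% called higher. Acadm at 8 weeks stood at 6.62, 6.64 and 6.96 for wild-type and 6.89, 6.83 and 6.85 for Akt1+/- muscle, and at 35 weeks at 7.14, 7.02, 7.0 and 6.99 and at 7.0, 7.06, 7.21 and 6.96, so that all 8 older arrays lay above all 6 younger ones, the nearest at 6.960 and 6.957. It rose by 0.25 (SE 0.066, adjusted p = 0.0133), and by 0.30 in wild-type muscle alone (0.0477), where 17% of all genes were called. The call was lost when normexp and quantile scaling replaced the scanner software's correction (0.14, adjusted p = 0.0961) and in 1 fit over all arrays (0.25, 0.0887). Hadhb rose by 0.29 (SE 0.096, adjusted p = 0.0388). Its levels were 5.99, 5.93 and 6.38 for wild-type and 6.32, 6.28 and 6.30 for Akt1+/- muscle at 8 weeks, and 6.45, 6.25, 6.58 and 6.51 and 6.44, 6.40, 6.85 and 6.41 at 35 weeks, where the ages overlapped. The call of Hadhb was lost without any 1 of 8 arrays (0.24 to 0.29, adjusted p = 0.0581 to 0.0986), namely all 6 of the 8-week arrays but the third wild-type one and replicates 1, 3 and 4 of wild-type muscle at 35 weeks.

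Markers of slow muscle fibres, which are rich in mitochondria, were also higher at 35 weeks, chiefly in wild-type muscle. Of 5 such markers 4 were higher at 35 weeks, with a median of 1.20, and in wild-type muscle 5 of 5, with a median of 2.02. In Akt1+/- muscle none of them was called, with differences of 0.13 (Myl2) to 0.68 (Tnni1). There 0 of 8 members were called, against 14.8% of all genes. The mean of Acadm went from 6.85 to 7.06 and that of Hadhb from 6.30 to 6.53. In wild-type muscle 1 of 8, Acadm, was called, against 17% of all genes. These means went from 6.74 to 7.04 for Acadm and from 6.1 to 6.45 for Hadhb, which was not called in either genotype alone. Myh7, the slow myosin, stood at 7.76, 5.29 and 8.57 in wild-type muscle at 8 weeks and between 8.38 and 9.40 on the other 11 muscle arrays, and Tnni1 rose by 2.22 in wild-type muscle (adjusted p = 0.0224). The summed slow fibre level was 5.92 to 9.12 in wild-type and 8.91 to 9.61 in Akt1+/- muscle at 8 weeks, and 9.52 to 9.95 and 9.46 to 9.78 at 35 weeks. Among the wild-type arrays of 8 weeks, the third had the highest Myh7, Acadm and Hadhb. Of 6 adipocyte markers 3 were also higher at 35 weeks, with summed levels of 7.05 to 7.13 in wild-type and 7.44 to 8.12 in Akt1+/- muscle at 8 weeks and of 7.37 to 7.71 and 7.22 to 8.12 at 35 weeks. Of 6 markers of muscle fibres at large 3 (Mb, Myh4 and Tnnt3) were higher, and their sum went from 11.83 to 12.09 at 8 weeks to 12.11 to 12.29 at 35 weeks, with no overlap. Both erythroid markers tested were lower, Alas2 by 0.72 and Hba-a1 by 0.88, and of 4 lymphocyte markers 1 was higher and 1 lower. The part of these cells in the results was not tested.

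The age difference of Acadm was 0.69 higher in muscle than in liver (SE 0.154, adjusted p = 0.00185) and 0.56 higher in muscle than in fat (SE 0.154, adjusted p = 0.0122), and both stayed called without any 1 array. It was the only member called in each, against 18.8% and 16.4% of all genes. Between fat and liver 0 of 8 were called by limma and 0 had an unadjusted p below 0.05 (16.2% and 5772 of all genes).

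**Figure D3:**
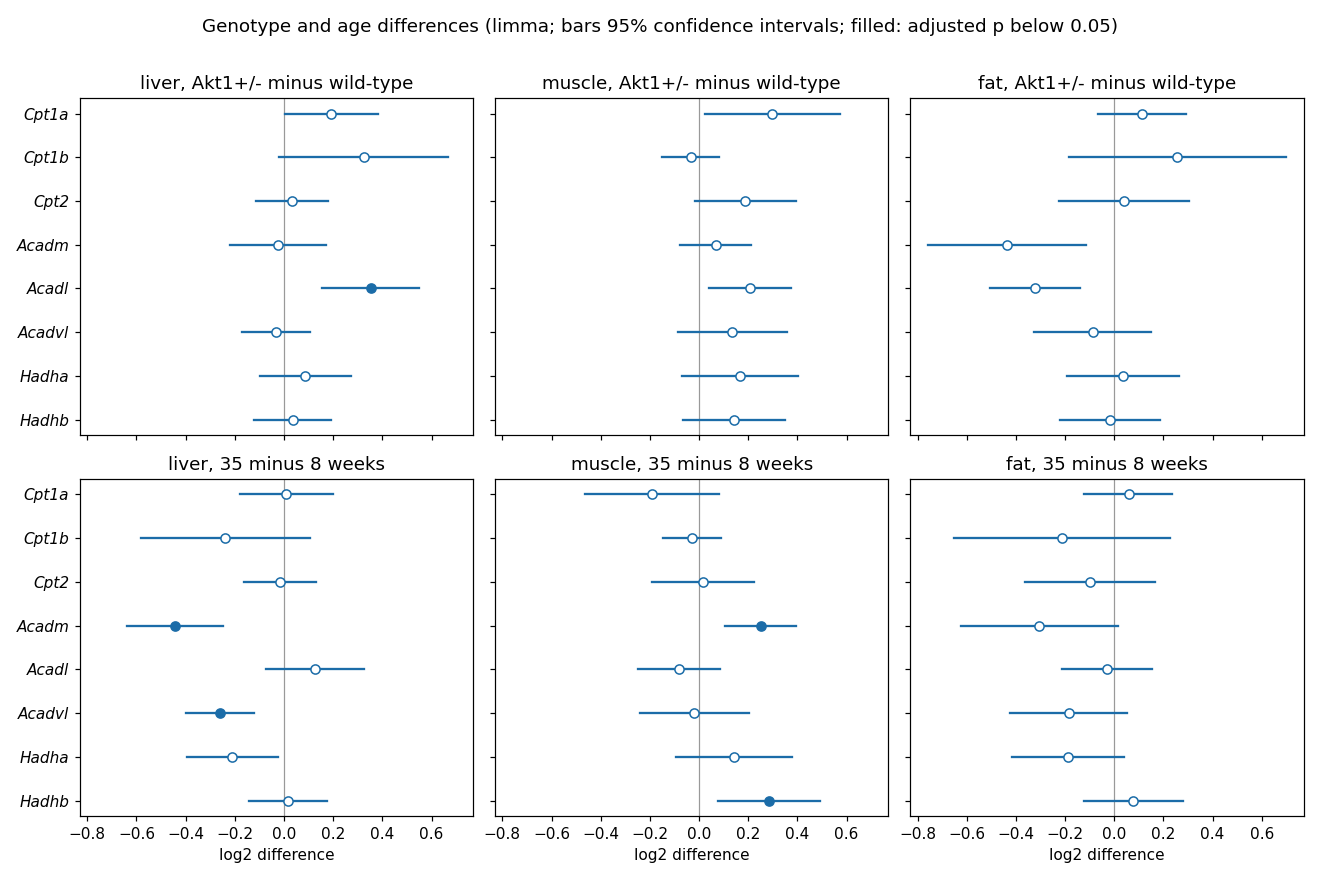
Log2 difference of each gene between genotypes (top, Akt1+/- minus wild-type, averaged over ages) and between ages (bottom, 35 minus 8 weeks, averaged over genotypes) in each tissue, with 95% confidence intervals from limma. Filled points are called (adjusted p below 0.05), namely Acadl for genotype in liver, Acadm and Acadvl for age in liver and Acadm and Hadhb for age in muscle.

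In fat 0 of 8 genes were called for age by limma, against 19.3% of all genes, and 0 had an unadjusted p below 0.05, where 6312 genes lay. In wild-type fat alone, where 13.4% of all genes were called, Hadha was lower at 35 weeks. It stood at 1.26, 1.54 and 1.76 at 8 weeks and at 0.94, 0.92, 1.12 and 0.995 at 35 weeks in wild-type fat, with no overlap, and fell by 0.53 (SE 0.148, adjusted p = 0.0364). In Akt1+/- fat it stood at 1.19, 1.22 and 1.24 at 8 weeks and at 1.03, 1.26, 1.65 and 1.53 at 35 weeks, a difference of 0.15 (adjusted p = 0.55). The clone-based probe of Hadha, well above background on all fat arrays, did not show this fall. Its mean was −2.75 at 8 weeks and −2.77 at 35 weeks in wild-type fat, and −2.64 and −2.78 in Akt1+/- fat. In the comparison of wild-type fat, 3 of 6 muscle fibre markers were higher at 35 weeks, namely Myh4 by 6.47 (adjusted p = 0.00115), Tnnt3 by 2.49 (0.0207) and Ckm by 2.30 (0.0275). Myh4 was well above background on 9 and Ckm on 6 of 14 fat arrays, so their sizes rest on dim signals. The sum of the 6 was 4.97 to 6.65 at 8 weeks and 4.72 to 5.83 at 35 weeks, and rests mostly on Acta1 (mean level 5.36 in fat). Of 4 lymphocyte markers 1 (Cd8a) was higher too. Their part was not tested. The difference between the genotypes in this age change did not pass the test (interaction 0.68, SE 0.210, adjusted p = 0.113). All 8 interaction estimates in fat were positive, with a median of 0.44 against 0.01 over all genes. Several of these genes are correlated with each other, so the 8 signs are not independent. The interaction was not fitted without the fat arrays high in brown adipocyte markers, which are described below. No member was called for the interaction in any tissue, against 0.564% of genes in liver, 0% of those in muscle and 1.64% of those in fat. At an unadjusted p below 0.05 there were 0, 0 and 2 members, and 2445, 1440 and 3695 genes.

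Brown adipocyte markers differed strongly between fat arrays. Ucp1, the uncoupling protein that defines these cells, stood at −5.79, −1.40, 1.56 and 0.64 in Akt1+/- fat at 35 weeks and at −3.77, −5.40, −2.23 and −6.31 in wild-type fat of that age. Cidea, another marker, stood at −0.29, 1.15, 3.96 and 3.79 and at 0.42, −0.38, 0.87 and −0.27. Replicates 3 and 4 of these Akt1+/- samples, highest in both, were also highest of their group in Cpt1b (−1.85 and −1.69, against −2.56 and −2.70) and in Hadha. At 8 weeks the second Akt1+/- array had the highest Ucp1, Cidea and Cpt1b (−1.60) of its group. The summed brown level was 1.77 to 3.67 and 1.04 to 3.69 in wild-type and Akt1+/- fat at 8 weeks, and 1.31 to 1.81 and 1.04 to 4.46 at 35 weeks, and 0 of 5 markers were called for genotype at 35 weeks. Without both of these 35-week arrays, a choice made after seeing the data, 0 members were called for genotype or for age in fat, as with them, the genotype difference of Cpt1b went from 0.26 to 0.04 and that of Acadm from −0.44 to −0.54.

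**Figure D4:**
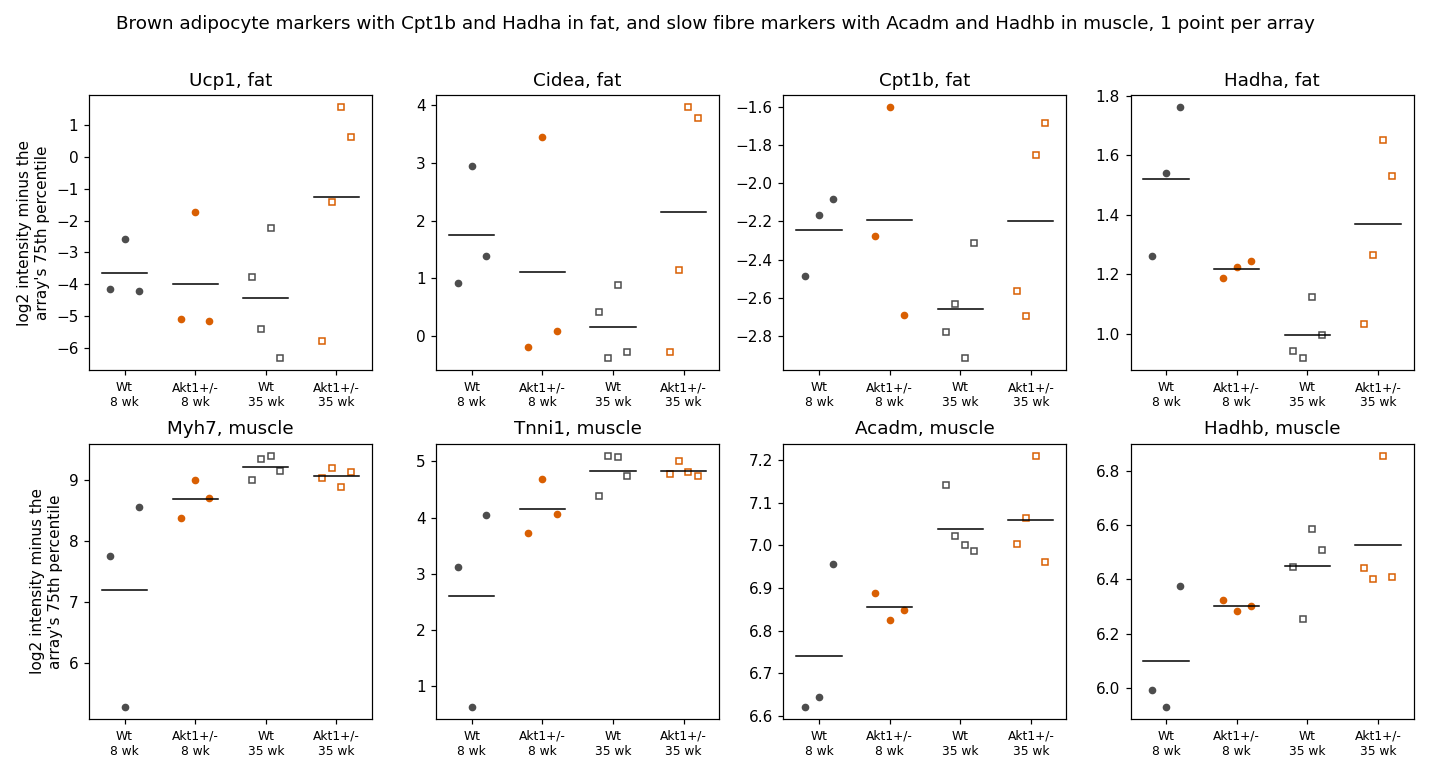
Log2 level on every array of 2 brown adipocyte markers (Ucp1, Cidea) beside Cpt1b and Hadha in fat (top), and of 2 slow fibre markers (Myh7, Tnni1) beside Acadm and Hadhb in muscle (bottom), by genotype and age, with a line at the group mean. Scales differ between panels. Within the Akt1+/- fat group of 35 weeks, the arrays with the highest Ucp1 and Cidea also have the highest Cpt1b and Hadha of that group. In muscle the lowest values of all 4 genes are on wild-type arrays of 8 weeks.

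The other lists changed with age in parts, and the shares of all genes called, 35.1% for liver, 31.3% for muscle and 19.3% for fat, stand beside their counts. In liver 3 of the 12 other mitochondrial genes were higher and 1 was lower at 35 weeks, the largest being Etfdh, which passes electrons from the dehydrogenases to the respiratory chain, at 0.45 higher (adjusted p = 0.000495). In muscle 1 was higher (Etfb, by 0.25) and in fat 1 was lower, the carnitine carrier Slc25a20, by 0.53 (adjusted p = 0.00148). Among the ketone body genes, Bdh1 was 1.43 (adjusted p = 0.00134), Oxct1 0.33 and Acat1 0.19 higher in muscle. None of these 3 was called for age in liver or fat or for genotype in any tissue.

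Of the 10 peroxisomal genes, Decr2 was called higher in all 3 tissues, by 0.54 in liver, 0.64 in muscle and 0.73 in fat. In liver Scp2 was 0.58, Acaa1b 0.46, Acaa1a 0.43 and Crot 0.30 lower. In muscle Crot was 0.41 lower. In fat Scp2 was 0.46 lower. Of the 10 regulators, Acaca was 0.74 higher and Mlycd 0.20 lower in liver, Ppargc1b was 0.81 higher in muscle, and in fat Prkaa2 was 0.38 higher and Ppard 0.45 lower. Ppard was also called for the interaction in fat, at 0.84 (adjusted p = 0.0387). It was dim, well above background on 12 of 14 fat arrays. In liver it was called for age, but it was well above background there on the 4 Akt1+/- arrays of 35 weeks alone, and no size is given. Of 8 PPAR targets tested in each tissue, Fgf21 was 0.82 higher in liver, Ucp3 0.42 higher and Fabp1, a liver gene well above background on 10 of 14 muscle arrays, 3.83 lower in muscle, and Cyp4a10 0.51 lower in fat.

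Levels of the members went together to unequal degrees. Over the 42 arrays, with each tissue's mean taken off, Pearson's r was 0.85 between Acadvl and Hadha, 0.80 between Cpt2 and Hadha, 0.75 between Cpt2 and Acadvl, 0.70 between Acadm and Acadvl and 0.68 between Hadha and Hadhb, whose windows overlap. Cpt1a had values between −0.15 and 0.25 with the other 7. Among all genes, Hadha was the most similar to Acadvl and to Cpt2, and Acadvl to Hadha. Besides other members, Acaa1b (0.79) and Uqcrc1 (0.77), a subunit of respiratory complex III, were next to Acadvl, Hsdl2 (0.67) to Cpt2 and Smap2 (0.74) to Hadha. The most similar to Acadl was Decr1 (0.77), followed by an unnamed probe (0.70) and Mapkap1 (0.66), and those to Acadm were Krcc1 (0.79), Bcl2l2 (0.78) and Isoc2b (0.78). Hadhb was closest to Slc25a3 (0.78), the phosphate carrier of mitochondria, the chaperonin Hspd1 (0.76) and Ech1 (0.74). For Cpt1a the highest were Tap1 (0.72), Apbb1ip (0.71) and C030027H14Rik (0.705), and for Cpt1b Haus8 (0.72), Twf2 (0.67) and Rnpep (0.66). Over the 12 group means, in which the tissue differences are kept, Cpt1a was most similar to Elovl5, Srr and B4galnt1 (0.999 each) and Cpt1b to Mmachc, Dnaja2 and Rhot2 (0.996 to 0.997). These values are descriptions over arrays that share slides and scaling, and carry no test.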

How the data were processed

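Levels of mRNA were measured on 42 Agilent whole mouse genome arrays. The scanner files deposited by the authors hold intensity values per spot, background-subtracted by the scanner software and, per the file headers, made with Feature Extraction 9.5.3.1 (the labels give 9.1). The series table deposited by the authors holds log2 values that had a correlation of 1 with the values used here (column medians −3.69 to −3.27), and its use as an alternative gave the same calls. Outlier spots were left out, spots of a probe averaged, and log2 intensity was taken minus the array's 75th percentile. No spot was saturated. A probe was kept if well above background on 3 or more arrays of any group, and the brightest stood for a gene. Genes were named through RefSeq accessions (GRCm38.p6, names and upstream sequences only), and probe coordinates are those of the array (mm8).

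For each tissue, 14 arrays were fitted with limma 3.58.1 in R 4.3.3, with 1 mean per group, and tissues were compared in 1 fit of 42 arrays, with Benjamini-Hochberg adjustment over all genes. Python 3.11.15, pandas 2.3.3, numpy 2.4.6 and matplotlib 3.10.9 were used. The fits were tested on simulated data. The number of arrays limits the precision. Every member is named, with the 3 genes most similar to it. Other lists are given by counts, the largest called difference and, for lists of 10 genes or fewer, other called genes (Decr1, Hadh, Echs1, Eci2, Crot, Pdk4, Acacb, Prkaa2 and the marker genes shown were chosen after their values were seen). Some genes of the other lists are not reported here. The members and lists were chosen with earlier results of these data known. As no label pairs samples, the fits are unpaired. Alternatives were other background correction, scaling, filters, probe rules, blocks, fits and samples. Those added after seeing the data were the comparisons of genotype and age differences between tissues, the fat fit without both arrays high in brown markers, and within-slide differences between muscle and liver.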

Additional observations from a re-analysis of the deposited data

Results flagged for a closer look

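In 3 of the 48 groups of 4 arrays and 1 gene that were examined, 1 array stood apart from the others of its group, and chance alone gives about 1 in 20. Cpt1a was 0.597 on the third Akt1+/- muscle array of 35 weeks, against 0.067 to 0.154 on the others. Hadhb was 6.854 on the same array, against 6.403 to 6.440. Acadm was 7.936 on the fourth Akt1+/- liver array of 35 weeks, against 7.462 to 7.532.

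The age difference of Acadm differed between tissues, by 0.694 on the log2 scale between muscle and liver and by 0.555 between muscle and fat. The genotype difference of Acadl also differed between tissues, by −0.676 between fat and liver and by 0.530 between muscle and fat. All 4 passed limma's test of the difference itself, as the report gives them.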

How the results depend on the processing

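The tissue differences kept their direction and calls under all alternatives, with 7, 8 and 8 members called throughout except for 8 between muscle and liver under normexp background correction with quantile normalization. In liver the number called for genotype, 1, became 2 with normexp, and 0 with median scaling, with no filter on dim probes and with slide as a random block, and ranged from 0 to 1 without 1 array. The number called for age in liver, 2, became 5 with median scaling and ranged from 2 to 3 without 1 array, 3 being without the third wild-type array of 35 weeks. In muscle the number called for age, 2, became 0 with normexp and 1 with median scaling, with no filter and in 1 fit over all arrays, and ranged from 1 to 2. There Hadhb was 0.15 higher (adjusted p = 0.169) with normexp. In fat the number called for age, 0, became 1 (Acadm) with normexp and in 1 fit over all arrays and ranged from 0 to 1, 1 being without the first wild-type array of 8 weeks (−0.43, adjusted p = 0.0445). The number called for genotype in fat, 0, became 2 in 1 fit over all arrays (Acadm −0.44, adjusted p = 0.0255, and Acadl −0.32, 0.0302) and was 0 without any 1 array, as in muscle. The causes were not tested.

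The genotype difference of Acadl between muscle and fat was 0.438 (adjusted p = 0.0695) with median scaling and 0.528 (0.0856) with slide as a random block, and ranged from 0.474 to 0.587 without 1 array. That between fat and liver ranged from −0.728 to −0.619, and the age difference of Acadm from 0.652 to 0.750 between muscle and liver and from 0.474 to 0.675 between muscle and fat. With the replicate number as a block, Acadl was 0.352 higher in Akt1+/- livers (adjusted p = 0.0402), and no call changed. That block could not be used for age. Same-numbered arrays of both genotypes deviated from their group means with correlations of −0.195 to 0.073 at 8 weeks and 0.105 to 0.526 at 35 weeks, where the number also gives the place on the slide. With slide as a fixed block, possible at 8 weeks in muscle and fat, no member was called. Of 812 values of members under other alternatives, 791 stayed on their side of the threshold, 11 lost and 10 gained a call, 0 called values changed sign and 21 values that were not called did. Of 1848 values without 1 array these were 1820, 26, 2, 0 and 33. The 812 values include settings, such as the deposited values and other filters, in which the size and sign of a member's difference could not change. Both counts include the large tissue differences, so they are not a measure of how stable the smaller results are.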
